A study of Homo sapiens with 12 samples.

Results

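The response described here is the part of the transcriptome that moved the same way when *BACH1* was lost by either of 2 methods in AsPC-1, an established human cell line from a pancreatic ductal adenocarcinoma. It was taken from all 12 libraries of the series, in 4 groups of 3, joined by gene identifier. SiBACH1 cells were transfected with a duplex siRNA against *BACH1* using Lipofectamine RNAiMAX and harvested 24 h later, and siCont cells are the controls of this arm. For the knockout, sgBACH1 cells were infected with lentiCRISPR v2, a virus that carries Cas9 and a guide RNA, here against *BACH1*, and were selected in 10 µg/ml puromycin, and sgCont cells are their controls. The siCont cells were also harvested at 24 h, and the sgCont cells were also selected in 10 µg/ml puromycin. What else the control cells received, and whether the sgBACH1 cells were a pool or 1 clone, is not described in the labels. RNA was depleted of rRNA and sequenced on an Ion Proton, with 13099706 to 21478886 counts per library. The change from siCont to siBACH1 is called the siRNA term, the change from sgCont to sgBACH1 the knockout term, and their mean the average, all as log2 fold changes. A gene was called at an adjusted p below 0.05 (edgeR quasi-likelihood test, Benjamini-Hochberg over all genes tested), and a gene called on the average was kept where both terms had the same sign. Of 15644 genes tested, 3037 were kept.

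BACH1 is a transcriptional repressor that pairs with small MAF proteins and binds DNA elements in genes for heme breakdown, iron storage and defence against oxidants. Heme binds BACH1 and releases it from DNA, and the activator NRF2 uses the same class of element, so loss of BACH1 is known to raise many genes that NRF2 also drives. In carcinoma cells BACH1 has also been studied for its part in invasion and in epithelial-mesenchymal transition, the loss of epithelial features that the series title names.

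The guide is shown because the knockout term rests on it, with the protospacer-adjacent motif that Cas9 requires in capitals. It lies on the plus strand of GRCh38 at chr21:29321457-29321479, in an exon of *BACH1*, inside the coding sequence of all 5 annotated transcripts that it matched.
BACH1 guide: ccactcaagaatcgtaggccAGG

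*BACH1* mRNA was 24.7, 27.5 and 24.6 CPM, a read count relative to library size, in siBACH1 against 196, 289 and 195 in siCont, and 220, 199 and 186 in sgBACH1 against 270, 295 and 279 in sgCont. In both experiments the groups were separate, and siCont replicate 2 stood above the other siCont libraries. The siRNA term was -3.14 ± 0.136 (log2, SE) and the knockout term -0.48 ± 0.122, so that the average was -1.81 ± 0.0904 (adjusted p = 3.06e-10). An exact two-sided permutation test gave p = 0.1 in each experiment, the smallest that 3 against 3 allows, and p = 0.005 when labels were permuted within both experiments together, the smallest of 400 arrangements. The 2 methods lowered the mRNA by different amounts (difference -2.66, adjusted p = 1.5e-08), and the mRNA of a gene cut by Cas9 does not measure its protein. In bulk RNA, fewer cells with a transcript and less transcript per cell cannot be told apart, here and below.

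Kept genes numbered 1500 higher and 1537 lower, which is 9.59% and 9.82% of the genes tested. A further 856 genes, 22% of the 3893 called on the average, were left out because their terms had opposite signs. Among the kept, 337 higher (2.15% of tested) and 347 lower genes (2.22%) were called in each term alone as well. Of the other higher genes, 455 were called in the siRNA term only, 511 in the knockout term only and 197 in neither. The corresponding numbers of lower genes were 551, 477 and 162. The median average was 0.454 for kept higher and -0.55 for kept lower genes, while the median of the smaller term was 0.269 and -0.276. Beyond a log2 change of 1 in both terms were 104 higher and 152 lower genes. Libraries did not overlap in either experiment for 743 of the higher (49.5%) and 667 of the lower genes (43.4%). Over all genes tested such groups were found for 5.02% higher and 4.42% lower, and for a further 7.61% in opposite directions. Kept genes were selected on these same libraries, so their larger share is not separate support for the response.

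Over all genes the 2 methods shared little of their direction. Terms shared a sign in 51.2% of all genes tested, in 52.2% of genes called in the siRNA term and in 52.8% of genes called in the knockout term. The share was 58.3% among the 1173 genes called in both, where 684 moved the same way and 489 in opposite ways. Across genes the terms had a Pearson r of 0.103 and a Spearman rho of 0.0629, given as a description, since genes are not independent and each term carries its own noise. At the edge of the rule, *MANF* was kept with a siRNA term of -0.47 and a knockout term of -0.00016, while *ATG2B* was left out at -1.04 and 0.00017. By adjusted p, *CAMLG* at 0.0499 was among the last inside and *EPHA2* at 0.0501 was among the first outside.

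**Figure D1:**
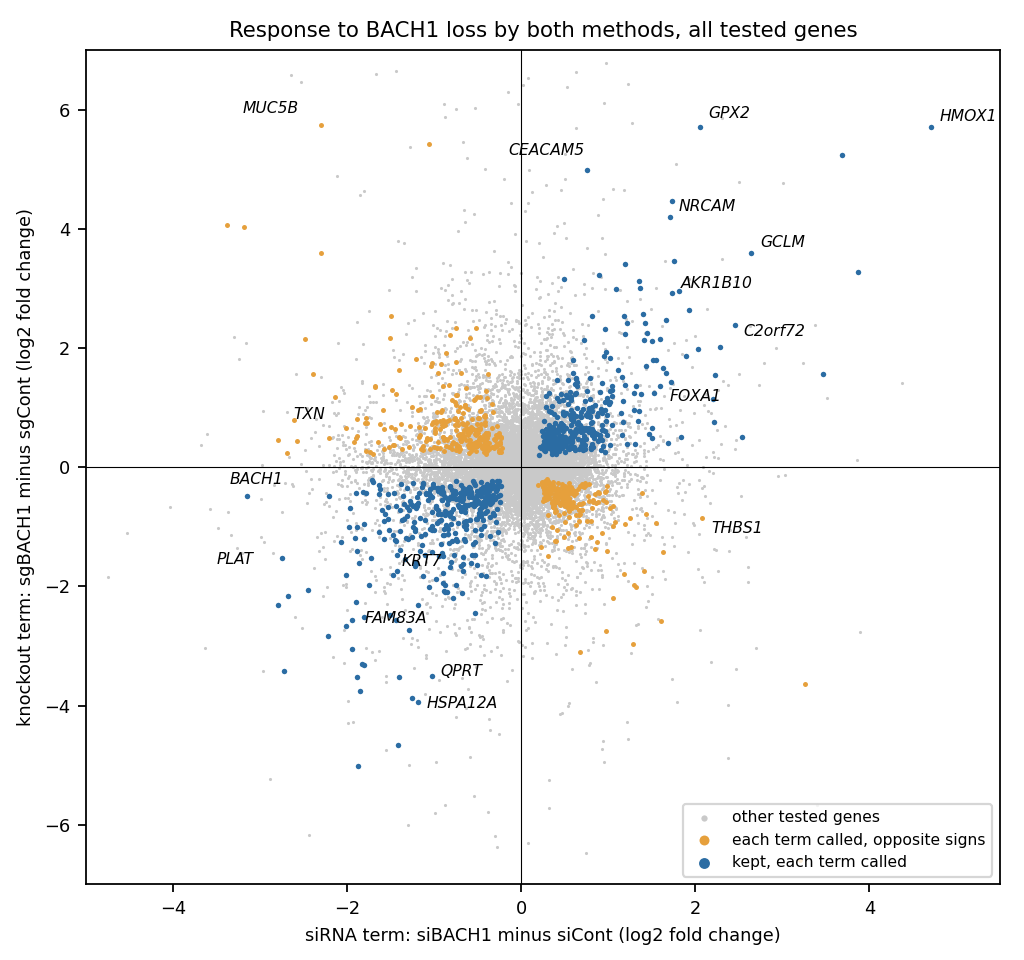
Each point is 1 of 15644 tested genes, with the siRNA term on the x axis and the knockout term on the y axis (both log2 fold changes), with blue for the 684 kept genes called in each term, orange for the 489 genes called in both terms with opposite signs, and grey for all others (18 genes lie outside the axes). *HMOX1*, *GPX2* and *GCLM* stand at the upper right, and *MUC5B* and *TXN* at the upper left.

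Among heme and iron genes, those for heme oxygenase 1, both ferritin chains and the iron exporter rose and were called in each term, as were *ABCB6* and *FECH*. *HMOX1*, heme oxygenase 1, which opens the heme ring and releases iron, had the largest average rise of the genes named by size. Its CPM was 174, 165 and 179 in siBACH1 against 6.08, 6.43 and 7.18 in siCont, and 455, 462 and 515 in sgBACH1 against 11.3, 6.36 and 9.47 in sgCont. All 6 libraries with *BACH1* loss lay far above all 6 controls, though genes named by size had to have groups that did not overlap. The average was 5.21 ± 0.105 (adjusted p = 1.95e-15), from terms of 4.71 and 5.70. The constitutive oxygenase gene *HMOX2* fell, with an average of -0.58 ± 0.0734 (adjusted p = 1.61e-05) and groups that did not overlap. *ABCB6*, a porphyrin transporter, rose by 1.65 ± 0.362 from low levels, 0.353 to 1.34 CPM in controls and 1.31 to 4.24 CPM after loss (adjusted p = 0.0026), and the call of either term was lost without some single libraries (adjusted p up to 0.147). Of 12 tested genes of heme breakdown and transport, 4 were kept as higher and 1 as lower, 2 and 1 of them called in each term, with a median average of 0.31 against -0.000793 over all genes tested. For this and every list below, the shares over all genes tested were 9.59% kept as higher and 9.82% as lower. With each term called they were 2.15% and 2.22%. Biliverdin reductase A, the next enzyme after heme oxygenase, was not kept, since *BLVRA* had terms of -0.37 and 1.02.

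Heme synthesis did not move as a group, with 1 of 12 tested genes kept in each direction. *FECH*, which inserts iron into the ring in the last step, rose by 0.57 ± 0.109 (adjusted p = 0.000886; its knockout term of 0.48 was 0.36 and not called without sgCont replicate 2), and *UROS*, which closes the ring several steps earlier, had an average of -0.54 ± 0.0615 (adjusted p = 4.26e-06).

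Both ferritin subunits, which together form the shell that stores iron, rose in every library with *BACH1* loss. *FTL*, the light chain, stood at 2230, 2070 and 2100 CPM in siBACH1 against 1020, 1020 and 1060 in siCont, and 2470, 2590 and 2590 in sgBACH1 against 1020, 986 and 1110 in sgCont. *FTH1*, the heavy chain, stood at 1720, 1790 and 1760 CPM against 813, 1020 and 889 by siRNA and 2930, 2990 and 2830 against 812, 739 and 859 by knockout. Controls of the 2 experiments were at like levels for *FTL*, and no group overlapped its control for either gene. The averages were 1.17 ± 0.0446 for *FTL* (adjusted p = 1.03e-11) and 1.41 ± 0.0562 for *FTH1* (adjusted p = 1.7e-11), and both genes have near-identical pseudogene copies, so their counts are uncertain. *SLC40A1*, ferroportin, the iron exporter, rose by both methods (1.17 and 1.11, average 1.14 ± 0.0761, adjusted p = 8.53e-09). Over 15 tested genes of iron storage, transport and sensing, 5 were kept as higher and 1 as lower, with a median average of 0.0115. That is 40% kept in either direction, against 19.4% of all genes tested. The transferrin receptor gene *TFRC*, for iron uptake, was not kept, with terms of -0.44 and 0.091.

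Glutathione synthesis rose at its first step and not at cystine uptake. *GCLM*, the modifier subunit of glutamate-cysteine ligase, stood at 122, 108 and 130 CPM in siBACH1 against 23.1, 16.4 and 18 in siCont, and at 118, 122 and 120 in sgBACH1 against 7.46, 14 and 8.64 in sgCont. Its libraries after loss reached nearly the same level by both methods, and no groups overlapped, which the rule for genes named by size required. The average was 3.12 ± 0.125 (adjusted p = 1.7e-11). *GCLC*, the catalytic subunit of the same enzyme, rose by 1.38 ± 0.0556 (adjusted p = 1.7e-11), and *GSR*, which reduces oxidized glutathione, by 0.28 ± 0.0486 (adjusted p = 0.000322), although its knockout term was not called (adjusted p = 0.0669). These were the 3 kept of 11 tested genes. *SLC7A11*, the cystine transporter, was called in opposite directions, with terms of -1.25 and 1.01 that differed at an adjusted p of 9.48e-05. Without siCont replicate 2 its siRNA term was -0.69 (adjusted p = 1.99e-06).

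Among genes that use glutathione, *GPX2*, a glutathione peroxidase of epithelia of the gut, showed the second largest average rise of the genes named by size. It stood at 136, 111 and 121 CPM in siBACH1 against 33.3, 25.3 and 29.8 in siCont, and at 231, 190 and 189 in sgBACH1 against 4.43, 3.53 and 3.63 in sgCont. The sgCont libraries lay far below the siCont libraries, while both groups with loss were high. The average was 3.88 ± 0.0968 (adjusted p = 2.86e-14), and the knockout term of 5.71 was larger than the siRNA term of 2.05 (adjusted p of the difference = 7.03e-10). Of 12 tested peroxidases and transferases, 6 were kept as higher and none as lower by edgeR, which had none lower at an unadjusted p under 0.05 either, and none was kept as lower by DESeq2 or limma-voom. Among these *GPX2* was the sole one called in each term, and no one of the others passed a log2 average of 1. In the thioredoxin system, 1 of 14 tested genes was kept in each direction. *PRDX1*, a peroxiredoxin, rose by 0.23 ± 0.0428 (adjusted p = 0.000628), and the thioredoxin reductase gene *TXNRD1* had an average of -0.59 ± 0.105 (adjusted p = 0.000454) that came from the siRNA term of -1.05, its knockout term being -0.13. *TXN*, thioredoxin itself, was called in opposite directions, -2.01 by siRNA and 0.65 by knockout (adjusted p of the difference = 1.38e-10).

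**Figure D2:**
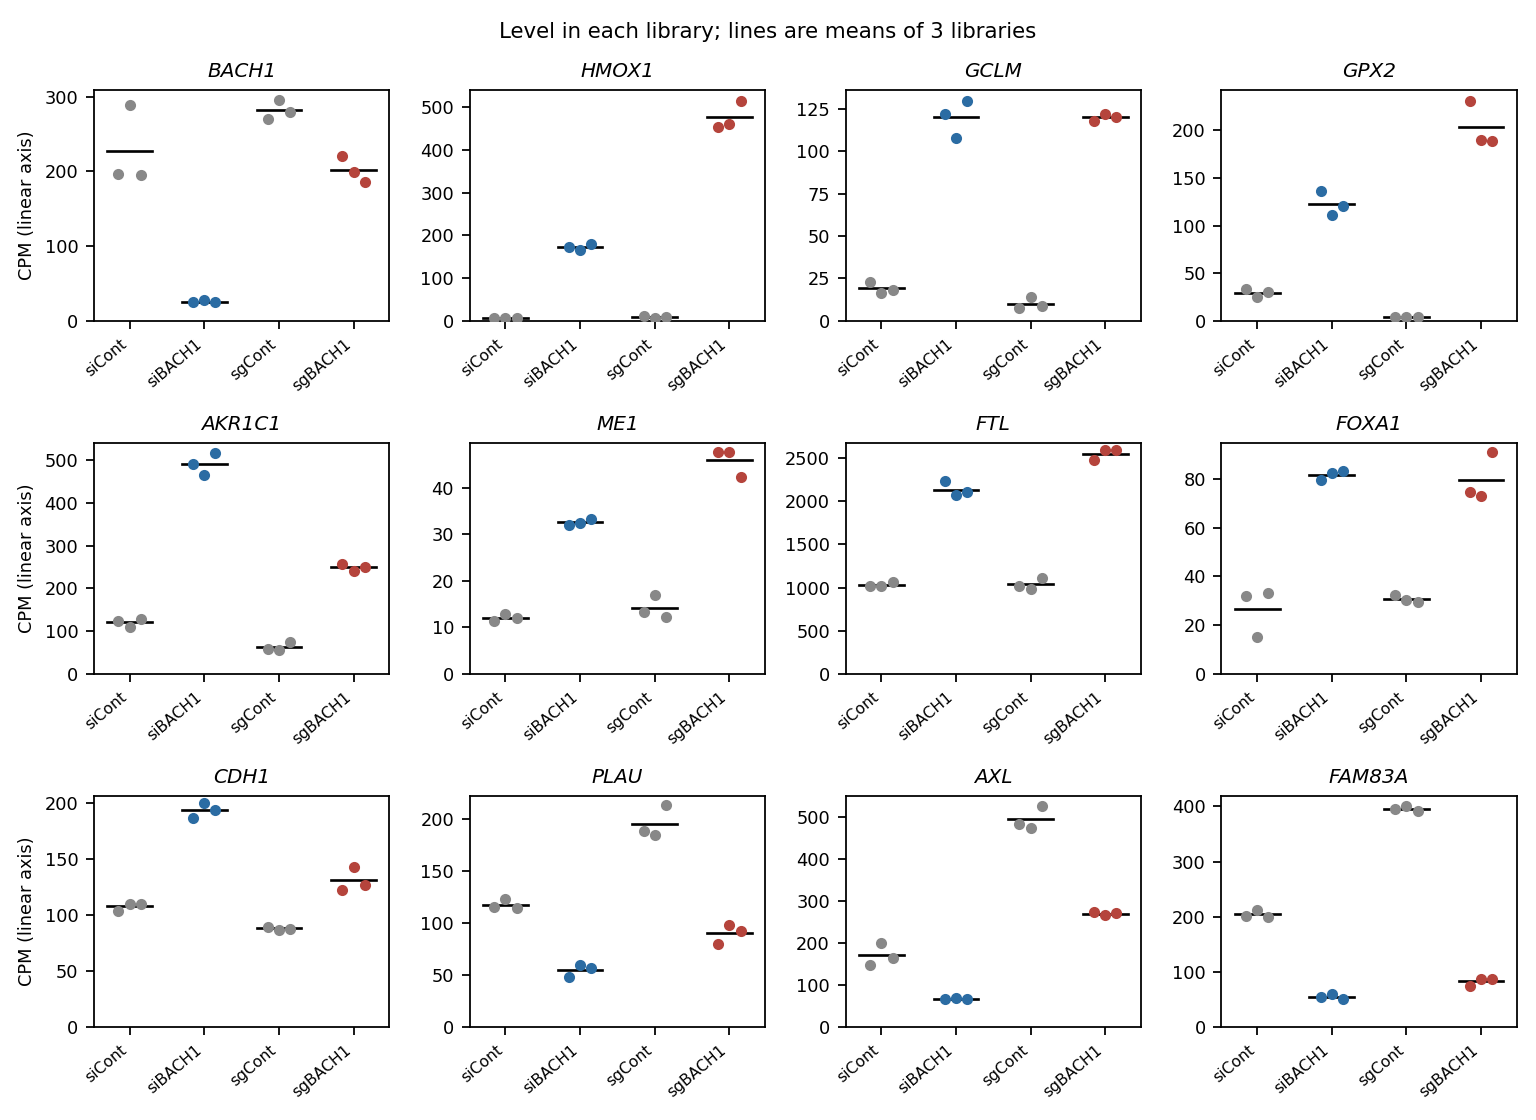
Level of 12 genes in every library, in CPM on linear axes that start at 0; points are the 3 libraries of a group, grey for controls, and lines are group means. For *HMOX1*, *GCLM*, *GPX2*, *AKR1C1*, *ME1*, *FTL*, *FOXA1* and *CDH1* all libraries with *BACH1* loss lie above their own controls, and for *BACH1*, *PLAU*, *AXL* and *FAM83A* below them.

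Genes for the reduction of carbonyls, quinones and epoxides, which detoxify products of oxidation, rose in number. Of 23 tested, 11 were kept as higher and 3 as lower, 8 and 1 of them called in each term, with a median average of 0.445. Over all genes tested, 19.4% were kept in either direction, against 60.9% of this list. *AKR1C1*, an aldo-keto reductase that acts on steroids and lipid aldehydes, stood at 491, 465 and 517 CPM in siBACH1 against 124, 109 and 128 in siCont, and at 258, 241 and 251 in sgBACH1 against 58, 57.1 and 74.2 in sgCont. Levels were higher throughout the siRNA experiment. The terms were 2.03 by siRNA and 1.99 by knockout, and their difference of 0.042 ± 0.137 was not called (adjusted p = 0.869). The average was 2.01 ± 0.0708 for *AKR1C1* (adjusted p = 3.58e-12) and 2.15 ± 0.101 for *AKR1C2* (adjusted p = 1.23e-10). These 2 genes are nearly identical in sequence, so reads may have been split between them. *AKR1B10*, which reduces retinal and other aldehydes, rose by 2.33 ± 0.208 (adjusted p = 2.71e-07), and *NQO1*, the quinone reductase often used as a readout of NRF2, by 1.03 ± 0.071 (adjusted p = 1.36e-08). *ALDH1A1*, a retinal dehydrogenase, rose by 2.54 with the siRNA and by 0.51 with the knockout, sizes that differed (adjusted p = 4.49e-07). *AKR1B1* was also among the kept, but at 9 counts over the siBACH1 libraries against 1 over siCont, and 95 over sgBACH1 against 0 over sgCont, so that no size is given for it.

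NADPH, the electron source for these reductases and for glutathione, is made by a few enzymes. Of 15 tested genes for its supply, 4 were kept as higher and 2 as lower, with a median average of 0.0919. That is 40% kept in either direction, against 19.4% of all genes tested. *ME1*, cytosolic malic enzyme, stood at 31.9, 32.4 and 33.3 CPM in siBACH1 against 11.3, 12.9 and 11.9 in siCont, and at 47.7, 47.6 and 42.2 in sgBACH1 against 13.3, 16.9 and 12.2 in sgCont. Controls were alike in both experiments and every library with loss lay above them. The averages were 1.57 ± 0.0943 for *ME1* (adjusted p = 2.72e-09), 1.15 ± 0.0532 for the pentose phosphate enzyme transketolase, *TKT* (adjusted p = 1.05e-10), and 0.32 ± 0.0542 for *IDH1*, cytosolic isocitrate dehydrogenase (adjusted p = 0.000322). *NNT*, the mitochondrial transhydrogenase that makes NADPH, had an average of -1.16 ± 0.0703 (adjusted p = 2.88e-09), larger in the siRNA term at -1.89 than in the knockout term at -0.43 (adjusted p of the difference = 9.78e-07).

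*ABCC2*, which exports glutathione conjugates and bilirubin conjugates, rose by 1.92 ± 0.0637 (adjusted p = 1.56e-12). Of 6 tested exporters, 3 were kept as higher and 1 as lower. *ABCG2*, which exports porphyrins and drugs, was called in opposite directions, -0.54 by siRNA and 1.12 by knockout (adjusted p of the difference = 1.13e-07). Among the factors that share DNA elements with BACH1 or regulate them, *MAFG*, a small MAF partner, rose by 0.44 ± 0.0798 (adjusted p = 0.000531), and *SQSTM1*, the autophagy receptor that binds KEAP1, by 0.57 ± 0.0452 (adjusted p = 7.62e-08). *TRIM16L* rose by 1.68 ± 0.209 (adjusted p = 1.26e-05), but it overlaps an exon of another gene on the same strand, so its counts are uncertain. *MAFF*, another small MAF gene, had an average of -0.72 ± 0.137 (adjusted p = 0.000872), with its siRNA term not called (adjusted p = 0.108). *NFE2L2*, which encodes NRF2, was not called on the average (0.17, adjusted p = 0.17). Of 12 tested, 5 were kept as higher and 3 as lower, BACH1 itself included among the lower.

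**Figure D3:**
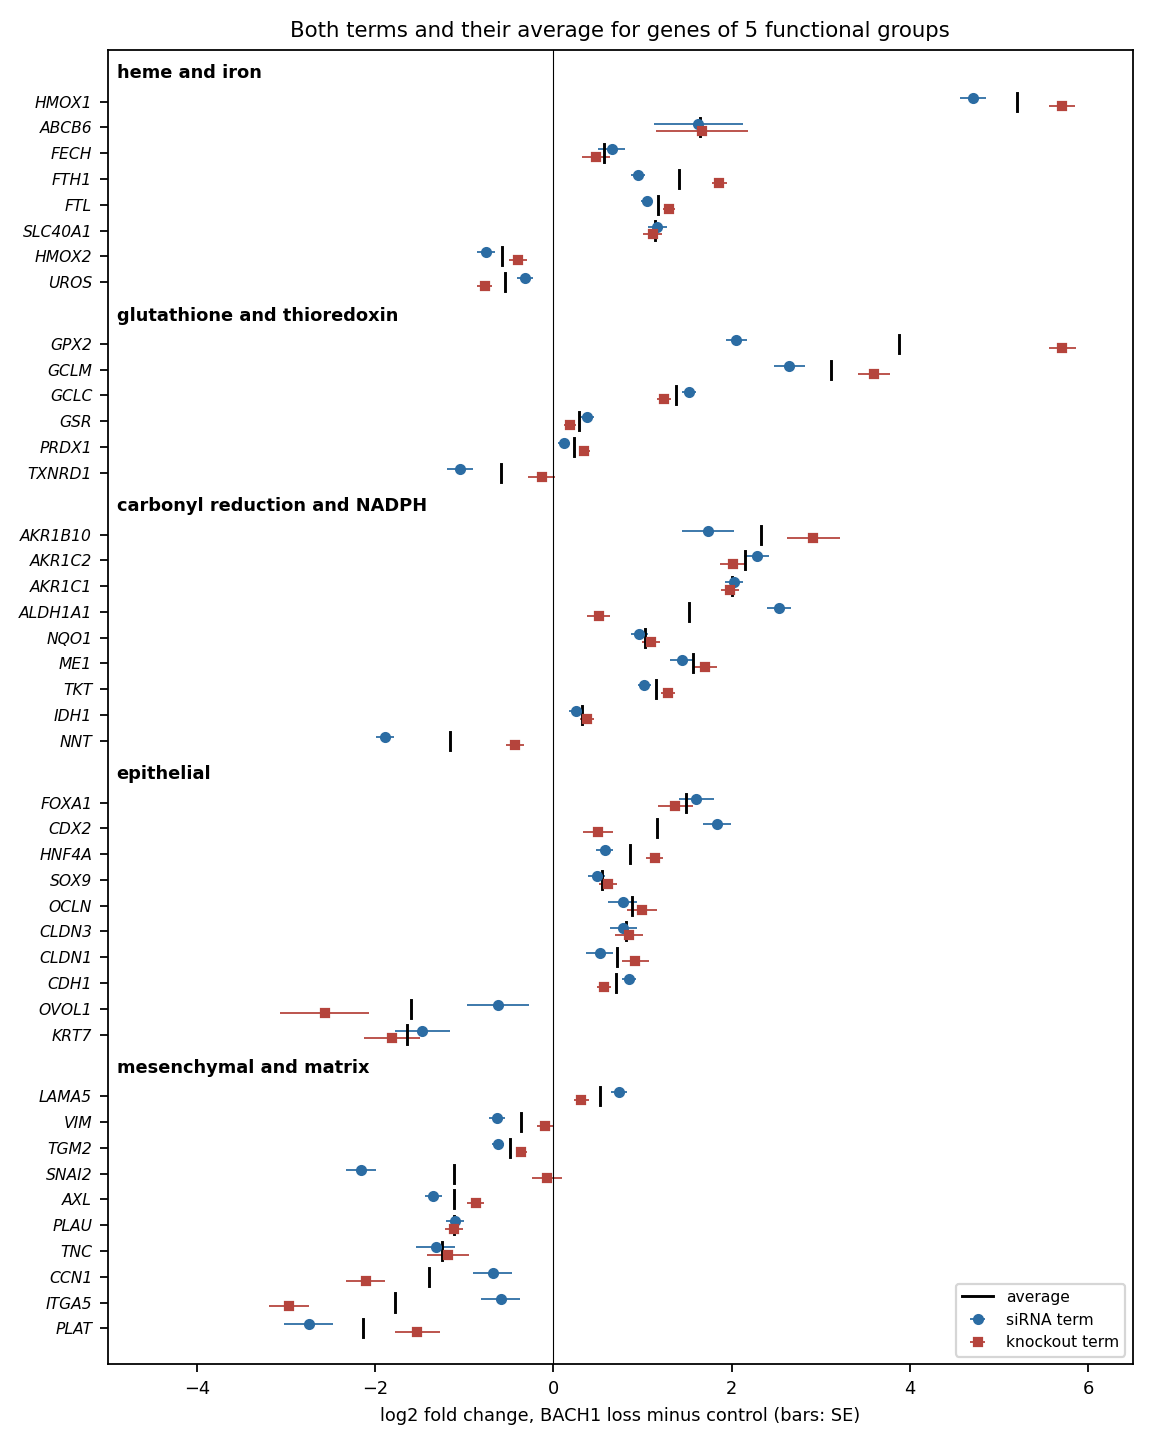
Log2 fold change of named genes of 5 functional groups on the x axis, with circles for the siRNA term, squares for the knockout term, bars for 1 SE and black ticks for the average. *AKR1C1*, *SLC40A1* and *PLAU* have terms of nearly equal size, while *GPX2*, *ITGA5* and *CCN1* are larger in the knockout and *ALDH1A1*, *NNT* and *SNAI2* in the siRNA term.

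Promoter sequences, from 250 bases before to 50 after the annotated start (RefSeq, GRCh38.p14), were searched on both strands for TGANTCAGC, letters found in elements bound by BACH1 and small MAF proteins, and for the shorter TGACNNNGC of the antioxidant response element. A run with C at the N of the first also counts under the second. A window was found for 10366 tested genes. TGANTCAGC occurred in 1.06% of these, in 1.76% of kept higher and 1.47% of kept lower genes, and in 1.35% of all promoters in the table. Among genes called in each term it stood in 4 of 256 higher promoters (1.56%) and in 1 of 253 lower promoters (0.395%), and among genes beyond 1 in both terms in 3 of 70 (4.29%) and 4 of 89 (4.49%). TGACNNNGC occurred in 15.3% of tested genes, 15.5% of kept higher and 16.6% of kept lower genes, and in 13.6% of all promoters. A match is a description only, and no match says only that the letters are not in this window. The 5 matches among genes called in each term are printed in the direction of the gene with the match in capitals, and in *PIR* the match lies on the strand opposite to the gene and reads as its reverse complement.
*PIR*, chrX:15493289-15493317, minus strand: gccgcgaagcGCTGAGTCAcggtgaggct
*ME1*, chr6:83431170-83431198, minus strand: tctcctgccaTGACTCAGCgcttctcgca
*SDCBP2*, chr20:1329207-1329235, minus strand: cagtccaaggTGAGTCAGCtgaacagggg
*UNKL*, chr16:1379626-1379654, minus strand: ccgcggaccgTGAGTCAGCattggcggcg
*CA9*, chr9:35673841-35673869, plus strand: gggcgctctgTGAGTCAGCctgctcccct

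Of these genes, named after their values were seen, *PIR*, an iron-binding nuclear protein, had an average of 1.62 ± 0.186 (adjusted p = 5.18e-06) with terms of 1.66 and 1.57. *SDCBP2*, a syntenin, rose by 1.45 ± 0.111 (adjusted p = 4.45e-08), and *UNKL* by 1.49 ± 0.0919 (adjusted p = 3.54e-09). *CA9*, carbonic anhydrase 9, a surface enzyme of hypoxic cells, moved the other way, at 15.5, 14.3 and 15.2 CPM in siBACH1 against 77.4, 39.6 and 71.5 in siCont and 40.5, 33.7 and 35.1 in sgBACH1 against 88.8, 87.6 and 84.1 in sgCont. Its average was -1.66 ± 0.126 (adjusted p = 4.03e-08) with no overlap between groups, siCont replicate 2 being the lowest control.

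Transcription factors of epithelial and endodermal cells were kept more often as higher than as lower. Of 19 tested, 12 were higher and 2 lower, with a median average of 0.388, and 5 of the higher were called in each term. Over all genes tested, 9.59% were kept as higher, 9.82% as lower, and 2.15% as higher with each term called. *FOXA1*, a pioneer factor of endodermal epithelia, stood at 79.5, 82.5 and 83 CPM in siBACH1 against 32.1, 15 and 33.2 in siCont, and at 74.5, 72.9 and 90.8 in sgBACH1 against 32.5, 30.2 and 29.5 in sgCont. Both groups with loss were high and did not overlap their controls, among which siCont replicate 2 was lowest. The average was 1.48 ± 0.138 (adjusted p = 4.42e-07). *HNF4A*, a nuclear receptor of liver, gut and pancreas epithelia, rose by 0.85 ± 0.0693 (adjusted p = 9.26e-08), *CDX2*, an intestinal homeobox factor, by 1.17 ± 0.115 (adjusted p = 9.2e-07), and *SOX9*, a duct progenitor factor, by 0.55 ± 0.0704 (adjusted p = 1.72e-05). *CDX2* rose more by siRNA (1.83) than by knockout (0.50, not called without some single libraries, adjusted p up to 0.16; adjusted p of the difference = 0.000377), and *HNF4A* more by knockout (1.13) than by siRNA (0.57; adjusted p = 0.00661). *OVOL1*, a repressor of mesenchymal genes, fell by 1.59 on the log2 scale (± 0.303, adjusted p = 0.000813), with its siRNA term not called. Its knockout term of -2.56 came from low levels, 11 counts over sgBACH1 against 62 over sgCont. In the siRNA experiment its groups overlapped, siCont replicate 2 being at 3.14 CPM and siBACH1 at 3.93 to 4.84 CPM. *OVOL2*, on the same list, was kept as higher at 0.97 ± 0.223 (adjusted p = 0.00357), with its siRNA term of 0.76 not called (adjusted p = 0.0995).

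Cell junction genes rose in part. Of 32 tested junction and keratin genes, 9 were kept as higher and 3 as lower, 7 and 2 of them called in each term, with a median average of 0.124, and 16 had terms of opposite sign. The share kept in either direction was 37.5%, against 19.4% of all genes tested. *CDH1*, E-cadherin, which joins epithelial cells at adherens junctions, stood at 186, 200 and 193 CPM in siBACH1 against 103, 110 and 110 in siCont, and at 122, 143 and 127 in sgBACH1 against 89.5, 86.5 and 87.6 in sgCont. No groups overlapped. Its average was 0.71 ± 0.0555 (adjusted p = 6.44e-08). The tight junction genes *OCLN*, *CLDN3* and *CLDN1* had averages of 0.89 ± 0.116, 0.81 ± 0.111 and 0.72 ± 0.107 (largest adjusted p = 8.39e-05). *KRT7*, a keratin of ductal epithelium, went the other way, with 4.35, 4.64 and 2.38 CPM in siBACH1 against 8.95, 14.9 and 7.71 in siCont, and 2.44, 2.69 and 4.27 in sgBACH1 against 10.1, 10.3 and 13 in sgCont. The groups did not overlap, and the average was -1.64 ± 0.22 (adjusted p = 2.67e-05).

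Mucosal secreted and surface proteins were split between the methods: of 22 tested, 7 were kept as higher and 1 as lower, 2 and 1 called in each term, while 5 were called in both terms with opposite signs. The median average of 0.972 came from the knockout term, whose median was 2.05 against -0.0829 for the siRNA term. *CEACAM5*, an adhesion protein of gut and carcinoma surfaces, stood at 135, 125 and 125 CPM in siBACH1 against 79.2, 71.6 and 77.3 in siCont, and at 125, 104 and 118 in sgBACH1 against 5.35, 2.61 and 2.68 in sgCont. The libraries with loss were alike by both methods and the sgCont libraries lay far below siCont. Its knockout term of 4.99 exceeded its siRNA term of 0.75 (adjusted p of the difference = 1.19e-09). *CEACAM6* showed the same order, 0.26 by siRNA, which was not called (adjusted p = 0.0652), and 2.52 by knockout, and reads of these family members may be shared. *AGR2*, a disulfide isomerase of mucus-secreting cells, rose by 0.80 ± 0.119 (adjusted p = 8e-05), and *LCN2*, an iron-chelating lipocalin, fell with both methods (-0.64 and -0.64, average -0.64 ± 0.0747, adjusted p = 6.05e-06). *MUC5B*, a gel-forming mucin, had opposite terms, -2.29 by siRNA and 5.75 by knockout (adjusted p of the difference = 4.04e-11).

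Mesenchymal genes that were kept were all lower. Of 21 listed genes, 10 passed the filter on low counts, and of these 5 were kept as lower and none as higher by edgeR, with a median average of -0.311. At an unadjusted p under 0.05 edgeR had 6 lower and none higher, and DESeq2 and limma-voom each kept 5 lower and none higher. *AXL*, a receptor tyrosine kinase linked to invasion, stood at 66.8, 68.2 and 65.6 CPM in siBACH1 against 147, 200 and 164 in siCont, and at 273, 266 and 271 in sgBACH1 against 484, 473 and 526 in sgCont. Although the sgBACH1 libraries remained above siCont, each group with loss lay below its own control. The average was -1.11 ± 0.0665 (adjusted p = 2.69e-09). *TGM2*, a transglutaminase that crosslinks matrix, had an average of -0.49 ± 0.0461 (adjusted p = 5.37e-07) and was the other one called in each term. The averages of *SNAI2*, which encodes the repressor SLUG, and *VIM*, vimentin, were -1.11 ± 0.118 and -0.36 ± 0.0606 (adjusted p = 2.13e-06 and 0.000242), and came from the siRNA terms of -2.16 and -0.63. Their knockout terms were -0.073 (adjusted p = 0.813) and -0.094 (adjusted p = 0.494), and *SNAI2* was no longer kept without sgBACH1 replicate 2. *ZEB1* was not called (-0.25, adjusted p = 0.119).

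Matrix, integrin and proteolysis genes were kept mostly as lower, 12 of 28 tested against 1 higher, 7 and 1 called in each term, with a median average of -0.395. The share kept in either direction was 46.4%, against 19.4% of all genes tested. *PLAU*, urokinase, which activates plasmin at the cell surface, stood at 47.8, 60 and 56.6 CPM in siBACH1 against 116, 123 and 115 in siCont, and at 80.4, 98.5 and 92.3 in sgBACH1 against 189, 185 and 214 in sgCont. No groups overlapped. The terms were -1.10 by siRNA and -1.12 by knockout, and their difference of 0.013 ± 0.141 was not called (adjusted p = 0.963). The average was -1.11 ± 0.0711 (adjusted p = 5.34e-09). *PLAT*, tissue plasminogen activator, had an average of -2.14 ± 0.186 (adjusted p = 2.07e-07), with siCont replicate 2 at 92.1 CPM, siCont replicates 1 and 3 at 261 and 284 CPM, and siBACH1 at 28.2 to 33.5 CPM. The matrix proteins *TNC*, tenascin C, and *CCN1* had averages of -1.25 ± 0.159 and -1.39 ± 0.156 (largest adjusted p = 1.47e-05). *ITGA5*, the fibronectin receptor chain, had an average of -1.78 ± 0.157 (adjusted p = 2.47e-07), with a knockout term of -2.96 and a siRNA term of -0.59 that was not called (adjusted p = 0.0654). The kept higher gene was *LAMA5*, a laminin chain of epithelial basement membranes, at 0.52 ± 0.0619 (adjusted p = 7.13e-06; named after its values were seen). *THBS1*, a matrix protein, was called with opposite terms, 2.08 by siRNA and -0.85 by knockout.

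TGF-beta signalling, a pathway that promotes mesenchymal genes, was listed together with BMP signalling. Of 26 tested genes of this list, 2 were kept as higher and 7 as lower, with a median average of -0.192. That is 34.6% kept in either direction, against 19.4% of all genes tested. The 2 higher genes were *BMP2*, at 0.94 ± 0.171 (adjusted p = 0.000527), and *ID2*, at 0.72 ± 0.184 (adjusted p = 0.00774). The knockout term of *BMP2* (0.34, adjusted p = 0.372) and the siRNA term of *ID2* (0.58, adjusted p = 0.133) were not called. *TGFB2*, a ligand, and *LTBP2*, a latent TGF-beta binding protein, had averages of -1.22 ± 0.115 and -1.16 ± 0.22 (adjusted p = 5.63e-07 and 0.000798), which came from knockout terms of -2.18 and -2.08, their siRNA terms of -0.26 and -0.24 not being called. *TGFA*, which in spite of its name is a ligand of the EGF receptor, was counted among the 7 lower genes of this list. It had an average of -0.83 ± 0.0901 (adjusted p = 2.51e-06). Of 21 growth factor receptors and ligands, 3 were kept as higher and 6 as lower, with a median average of -0.247, or 42.9% in either direction. *MET*, the hepatocyte growth factor receptor, had an average of -0.55 ± 0.0907 (adjusted p = 0.000218), and *IGFBP4*, which binds insulin-like growth factors, of -0.59 ± 0.0474 (adjusted p = 7.79e-08), while *FGFR2* rose by 1.17 ± 0.204 (adjusted p = 0.00037). *IGFBP1*, another binding protein, had an average of -2.14 ± 0.493 (adjusted p = 0.00375), but its siCont libraries were at 19.9, 286 and 18.4 CPM, and without siCont replicate 2 the average was -0.89.

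**Figure D4:**
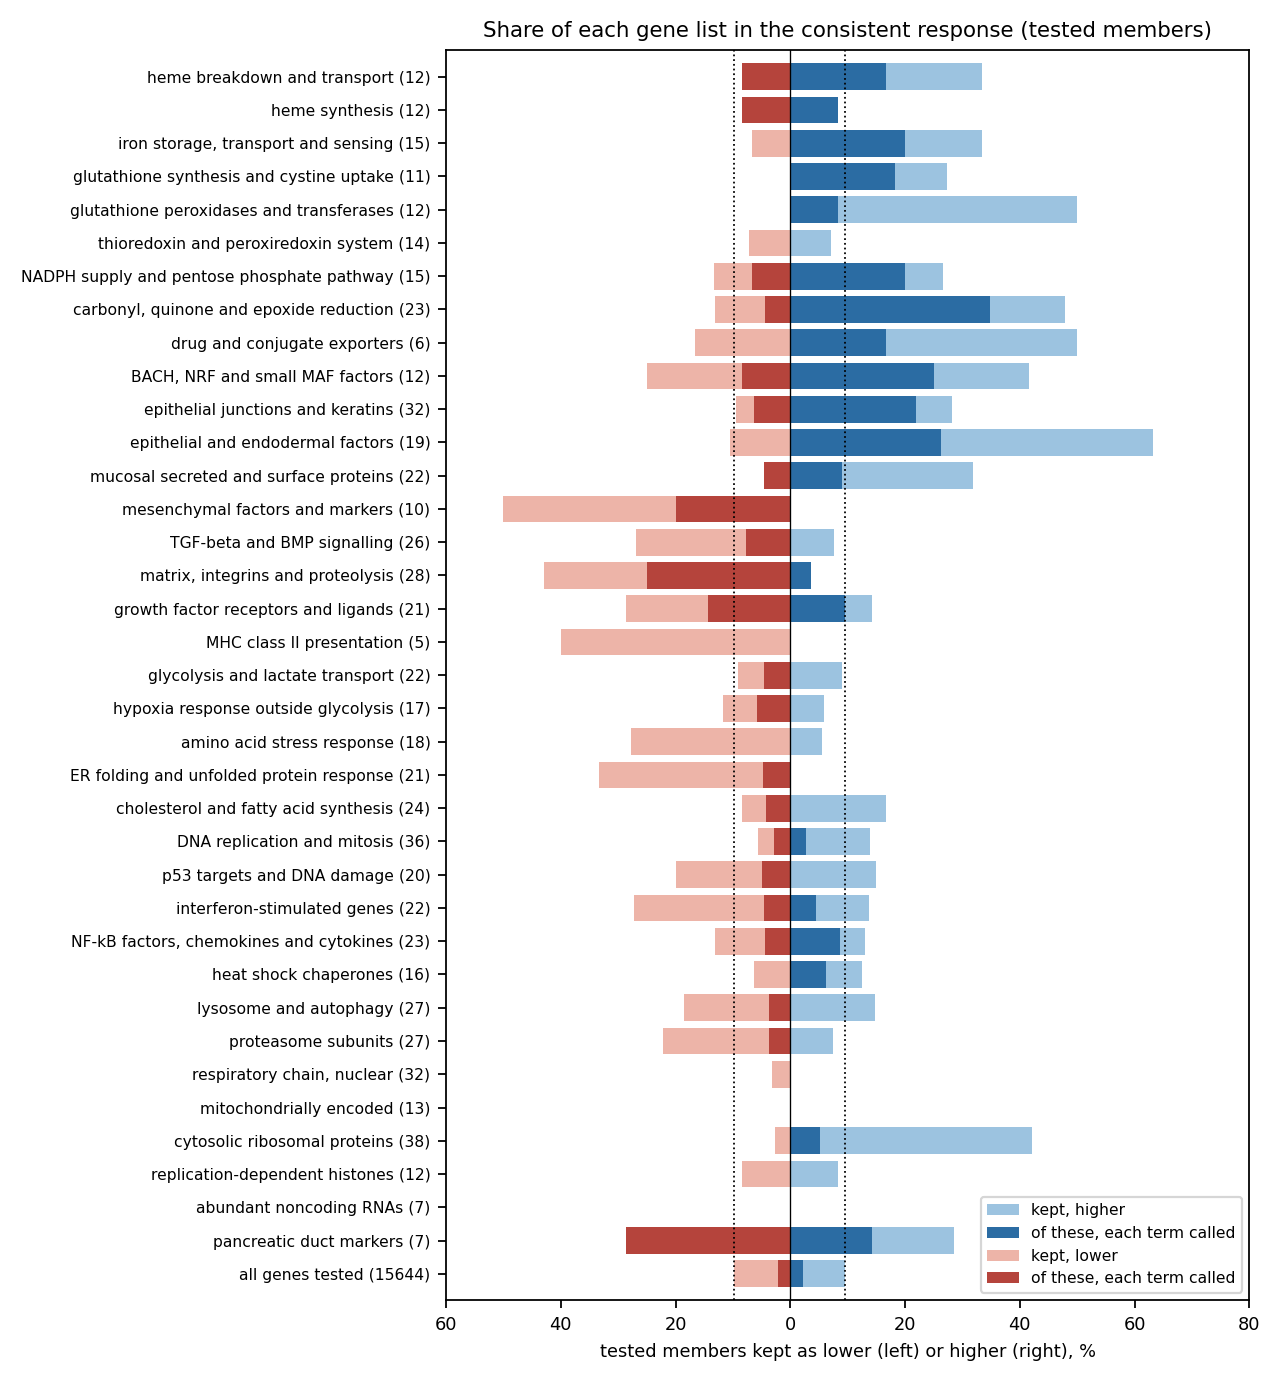
Share of the tested members of each list (number tested in parentheses; lists with at least 5) that were kept as higher, to the right, or lower, to the left, in percent, with dark bars for members called in each term and dotted lines for the shares over all 15644 genes, 9.59% and 9.82%. Epithelial factors, carbonyl reduction and ribosomal proteins reach far to the right, and mesenchymal and matrix genes far to the left.

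Other genes with the largest averages belonged to no one list. By average, the 12 largest rises also held *NRCAM*, a neuronal adhesion molecule, *C2orf72*, the sodium-proton exchanger *SLC9A2*, the calpain *CAPN8*, the small GTPase *RAB15* and the kinase *TESK2*, at averages of 2.96, 2.43, 2.31, 2.24, 2.06 and 2.05. For *TESK2* the siRNA term of 1.14 was not called (adjusted p = 0.108), and its sgCont libraries were at 0, 0.353 and 0.953 CPM. *CAPN8* was at 2.8, 0.235 and 2.34 CPM in siCont, and its siRNA term of 1.35 was 0.87 without siCont replicate 2. *C2orf72* rose by both methods (2.46 and 2.40, difference 0.063 ± 0.203), from 21.2, 13.6 and 20.4 to 104, 94.1 and 106 CPM with the siRNA and from 7.89, 9.54 and 9.29 to 44.5, 46.8 and 49 CPM with the knockout. By the smaller of both terms, *IGSF9*, an immunoglobulin-family adhesion protein, also ranked among the 8 largest, with terms of 1.89 and 1.87 (adjusted p of the average = 2.01e-08).

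The 12 largest average falls included *GASK1B* (-3.04), the cytidine deaminase *APOBEC3G* (-2.70), the zinc finger factor *HIVEP3* (-2.57), the arginine deiminase *PADI1* (-2.56), *HSPA12A* (-2.56), *FOXL2NB* (-2.55) and the ubiquitin ligase *MARCHF4* (-2.46). *KRT16*, a keratin of stressed squamous epithelium with near-identical copies, *QPRT*, an enzyme of NAD synthesis, and *FABP3*, a fatty acid binding protein, had averages of -2.42, -2.27 and -2.15. Several of these were larger in the knockout: *HSPA12A* had terms of -1.18 and -3.93 (adjusted p of the difference = 2.68e-07) and *QPRT* of -1.03 and -3.50 (adjusted p = 3.02e-06). *FAM83A*, which relays EGF receptor signals, was among the 8 falls with the largest smaller term. It stood at 55.2, 59.2 and 50.7 CPM in siBACH1 against 202, 212 and 199 in siCont, and at 74.6, 86.9 and 86.6 in sgBACH1 against 395, 401 and 391 in sgCont. Libraries of a group lay close together. No groups overlapped, as the naming rule required, and the average was -2.08 ± 0.0593 (adjusted p = 1.61e-13). *NOG*, the BMP antagonist noggin, had terms of -2.02 and -1.81 from 3.78 to 6.99 CPM in controls (adjusted p of the average = 3.57e-05). Of the kept genes whose terms differed in size, 225 of 358 higher genes and 206 of 545 lower genes were larger in the knockout.

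In glycolysis and lactate transport, 2 of 22 tested genes were kept in each direction while 7 were called in both terms with opposite signs, as were 3.13% of all genes tested. Among those, *SLC2A1*, the main glucose transporter, had terms of -0.69 and 1.58 (adjusted p of the difference = 1.82e-07) and *PGK1*, phosphoglycerate kinase, of -0.32 and 0.93 (adjusted p = 3.08e-06), the first being -0.18 and not called without siCont replicate 2. *PFKP*, a phosphofructokinase, was kept with terms of -1.72 and -0.21 (adjusted p of the average = 7.02e-10), and the call of its knockout term was lost without some single libraries (adjusted p up to 0.151). For DNA replication and mitosis, 24 of 36 tested genes had terms of opposite sign, against 48.8% of all genes tested, but 1 was called in both, and 5 were kept as higher and 2 as lower. In the amino acid stress response 1 of 18 was kept as higher and 5 as lower. *PSAT1*, of serine synthesis, stood at 34.6, 151 and 29.6 CPM in siCont, and its average of -1.27 was -0.69 without siCont replicate 2 and was not kept without sgCont replicate 3. The counts for that list were 4 higher and 4 lower without siCont replicate 2.

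Of 21 genes of ER folding, 7 were kept as lower, with *HSP90B1*, the ER chaperone GRP94, at -0.28 ± 0.0568 (adjusted p = 0.00132) the sole one called in each term, a call its knockout term lost without some single libraries (adjusted p up to 0.2). The 7 were 33.3% of this list, against 19.4% of all genes tested kept in either direction. Of 20 p53 and DNA damage genes, 3 were kept as higher and 4 as lower, among them *PLK2*, a polo-like kinase, at -1.08 ± 0.0564 (adjusted p = 5.42e-10), and without siCont replicate 2 the higher count was 6. In the NF-kB list of 23, 3 were kept in each direction, with *CXCL3*, a neutrophil chemokine, at 1.67 ± 0.25 (adjusted p = 8.37e-05) and *TNFAIP3*, which encodes the inhibitor A20, at -1.02 ± 0.0868 (adjusted p = 1.65e-07). Interferon-stimulated genes were kept as higher in 3 and lower in 6 of 22, and cholesterol and fatty acid genes as higher in 4 and lower in 2 of 24. In either direction these were 40.9% and 25%, the second near the 19.4% of all genes tested. Cytosolic ribosomal protein genes were kept as higher in 16 of 38 and as lower in 1, by small amounts, with a median average of 0.135 and 2 called in each term. Of 32 nuclear genes of the respiratory chain 1 was kept, as lower, and of 13 mitochondrially encoded genes none was kept by edgeR, DESeq2 or limma-voom, with 1 higher and 1 lower at an unadjusted p under 0.05 in edgeR. In MHC class II presentation, 2 of 5 tested genes were kept as lower at low counts: *HLA-DRA* had 251 counts over sgCont against 9 over sgBACH1, but 19 over siCont against 8 over siBACH1, and *CIITA*, its activator, had 181 against 9 and 9 against 9.

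Values that moved with the response are given here without a cause. Among kept lower genes, 43.1% of those with a searched 3′ UTR held AACATTA or ACATTAA, words that earlier results of these data had found among genes lower in siBACH1, against 18.3% of kept higher genes and 24.8% of genes not called. The share was 58.5% for lower genes called in the siRNA term only, 43.7% for those called in each term and 28.1% for those called in the knockout term only. Genes called lower in the siRNA term had a knockout term of the same sign in 45.9% of 1009 with the match and 55.4% of 764 without it. Of the kept genes named here, 12 of 44 falls carried it, *BACH1*, *NNT*, *TXNRD1*, *TGM2*, *TGFB2*, *MET* and *GASK1B* among them, and 11 of 48 rises, as did *TXN*, *SLC7A11*, *ABCG2* and *PGK1*, which had opposite terms. Without all genes carrying it the response held 1026 higher and 1049 lower genes. Genes lying in chromosome windows of 100 tested genes whose median knockout term passed 0.3 in size made up 11.4% of kept higher and 8.46% of kept lower genes, against 8.39% of all genes tested, and *HMOX2*, *FTL*, *ITGA5*, *CIITA* and *UNKL*, 5 of the 92 kept genes named, lay in one. The part of either feature in the response was not tested.

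The library labelled siCont replicate 2 stood farther from its group than any other, with a median absolute deviation of 0.197 (log2) against 0.0867 to 0.158. Without it 1684 genes were higher and 1674 lower, and 429 and 434 of these were called in each term. Lists led with above kept their direction there: 12 higher and 3 lower in carbonyl reduction, 13 and 2 in epithelial factors, 10 and 3 in junctions, 5 lower in mesenchymal genes, and 12 lower against 2 higher in matrix genes. Duct markers were abundant in every library. They summed to 9230 to 10600 CPM in sgBACH1 against 13900 to 14800 in sgCont, with no overlap, and to 9880 to 10200 in siBACH1 against 8840 to 10500 in siCont. The most abundant, *KRT8*, had a knockout term of -0.66 and a siRNA term of 0.18. Their part in the epithelial results was not tested. Of 7 tested, 2 were kept as higher and 2, *KRT7* among them, as lower. Acinar markers summed to at most 1.12 CPM with *AMY2A* and *CLPS* at 0, endocrine markers to at most 2.01 CPM with *INS*, *GCG*, *SST*, *PPY* and *IAPP* at 0, leukocyte markers to at most 6.34 CPM and endothelial markers to at most 0.985 CPM. Fibroblast markers summed to 45.8 to 52.2 CPM in sgBACH1 against 113 to 140 in sgCont, and to 339 to 361 in siBACH1 against 294 to 303 in siCont. Of these 1 gene, *LUM*, passed the filter on low counts, with terms of 0.23 and -1.34.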

How the data were processed

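The authors deposited raw read counts per gene in 1 table for each experiment, made with HTSeq 0.9.1 and SAMtools on hg19, per the submitters' processing notes. For the aligner, counting mode and strand setting nothing is stated: not given in the sources used here. Both tables hold 57820 identifiers, joined by identifier, of which 51996 took a current symbol. Every column matched a sample. Counts were fitted in R 4.3.3 by edgeR 4.0.16 (scaled by TMM, filterByExpr with a minimum count of 10, 4 group means, no replicate block), with two-sided quasi-likelihood tests of the average, each term and their difference. CPM are TMM-scaled. The fit was tested on simulated data. P-values measure the spread between libraries, since the labels do not say that replicates were separate cultures. Counting error is small beside that spread except in genes of few counts, of which *AKR1B1*, *HLA-DRA* and *CIITA* are given as counts. *TESK2*, *FOXL2NB*, *APOBEC3G*, *HIVEP3*, *KRT16* and *OVOL1* also had few counts in a group, so their sizes are uncertain. The same holds for *ABCB6*, *MARCHF4*, *GASK1B*, *PADI1* and *NOG*, among others. *TESK2* had 21 counts over sgCont, *FOXL2NB* 22 over siBACH1, *OVOL1* 11 over sgBACH1 and *GASK1B* 57 over sgBACH1.

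The members, lists and rules were chosen with earlier results of these data known. Genes were named by rule: *BACH1*; the 12 largest average rises and falls, and the 8 each way with the largest smaller term, among kept genes whose mean log2 CPM reached 1 and groups that did not overlap in either experiment (1247 were eligible); and up to 6 kept members of each list with the largest averages. *PIR*, *SDCBP2*, *UNKL* and *LAMA5* and the genes with opposite terms were named after their values were seen. A few genes that the rule names are not reported here. Gene lists also covered heat shock, lysosome, proteasome, hypoxia, histone and noncoding RNA genes. Of these 16, 27, 27, 17, 12 and 7 were tested, and 2, 4, 2, 1, 1 and 0 were kept as higher and 1, 5, 6, 2, 1 and 0 as lower. Of 92 named kept genes, 33 overlap an exon on the opposite strand and 15 one on the same strand, so their counts are uncertain, among them *BACH1*, *FAM83A*, *HSPA12A*, *GASK1B* and *CEACAM5*. Motifs and 3′ UTRs came from RefSeq and GENCODE 29 on GRCh38 and were matched by gene, not by hg19 coordinates.

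Alternatives were DESeq2 1.42.0, limma-voom (limma 3.58.1), upper quartile scaling, no filter on low counts, a replicate block, each experiment fitted alone, each library left out, and leaving out genes with a 3′ UTR match or in shifted windows. Replicate numbers were taken not to pair libraries, as the closing section reports.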

Additional observations from a re-analysis of the deposited data

Results flagged for a closer look

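The genes below changed by different amounts with the 2 methods, by the test of the difference between terms in the common fit (adjusted p below 0.05). The value in parentheses is the siRNA term minus the knockout term, in log2. Knockout cells had been selected in puromycin and siRNA cells were harvested at 24 h, so method and time cannot be told apart.

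Kept genes that rose more in the knockout were *CEACAM5* (-4.24), *GPX2* (-3.65), *NRCAM* (-2.49), *RAB15* (-2.34), *CEACAM6* (-2.26), *SLC9A2* (-2.22), *CAPN8* (-1.78), *AKR1B10* (-1.18), *HMOX1* (-0.994), *ABCC2* (-0.988), *SDCBP2* (-0.951), *GCLM* (-0.947), *FTH1* (-0.909), *HNF4A* (-0.56) and *FTL* (-0.25). Those that rose more with the siRNA were *ALDH1A1* (2.03), *UNKL* (1.45), *CDX2* (1.34), *LAMA5* (0.418) and *SQSTM1* (0.282).

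Kept genes that fell more in the knockout were *CIITA* (4.05), *GASK1B* (3.25), *HSPA12A* (2.75), *HIVEP3* (2.62), *QPRT* (2.48), *ITGA5* (2.37), *MARCHF4* (2.12), *OVOL1* (1.94), *TGFB2* (1.92), *LTBP2* (1.84), *APOBEC3G* (1.63), *PADI1* (1.51), *CCN1* (1.42), *PLK2* (0.839), *UROS* (0.453) and *FAM83A* (0.366). Those that fell more with the siRNA were *IGFBP1* (-2.87), *BACH1* (-2.66), *PSAT1* (-2.42), *SNAI2* (-2.08), *PFKP* (-1.5), *NNT* (-1.46), *PLAT* (-1.22), *TGFA* (-0.958), *TXNRD1* (-0.915), *CA9* (-0.816), *VIM* (-0.54) and *AXL* (-0.477).

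Genes left out because their terms were called in opposite directions were *MUC5B* (-8.04), *THBS1* (2.93), *TXN* (-2.67), *SLC2A1* (-2.27), *SLC7A11* (-2.26), *ABCG2* (-1.67) and *PGK1* (-1.26).

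Some of these differences changed in size when 1 library was left out. Without siCont replicate 2 the difference was -0.38 for *IGFBP1* and no longer called (adjusted p = 0.176). Without the same library it was smaller but still called for *PSAT1* (-1.26) and *TXNRD1* (-0.60, adjusted p = 1.13e-05 for each). For *AKR1B10* it was -0.75 and not called without siCont replicate 3 (adjusted p = 0.184). For *CIITA* it was 2.43 and not called without siBACH1 replicate 1 (adjusted p = 0.406). The difference for *PADI1* grew from 1.51 to 2.27 without sgBACH1 replicate 3 and stayed called (adjusted p = 0.00277). Of the 55 differences, 13 were no longer past the threshold without at least 1 library: *AKR1B10*, *APOBEC3G*, *CA9*, *CAPN8*, *CIITA*, *FAM83A*, *FTL*, *IGFBP1*, *LAMA5*, *OVOL1*, *PADI1*, *PLAT* and *SQSTM1*.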

How the results depend on the processing

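The counts of kept genes were 1621 higher and 1673 lower with DESeq2, 1600 and 1508 with limma-voom, 1643 and 1415 with upper quartile scaling, and 1551 and 1557 with no filter on low counts, so that the share of higher genes moved from 49.4% to 53.7% with upper quartile scaling. Requiring a call in each term of the common fit left 337 higher and 347 lower genes, and fitting each experiment alone and asking for a call in both left 320 and 347 of 13845 genes. Leaving out 1 library at a time gave 1239 to 1684 higher and 1273 to 1674 lower genes, with 225 to 429 and 245 to 434 called in each term and 683 to 1102 genes whose terms differed, against 903 with all libraries. The *BACH1* average stayed between -1.86 and -1.70 under every alternative that gave one. Without genes in shifted windows 1313 were higher and 1389 lower.

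Of 92 named kept genes, 89 were kept under every alternative that tested them and none reversed. *SNAI2* was lost without sgBACH1 replicate 2, *PSAT1* without sgCont replicate 3, and *CIITA* without siBACH1 replicate 2 or siCont replicate 1. The average of *IGFBP1* moved from -2.14 to -0.89 and that of *PSAT1* from -1.27 to -0.69 without siCont replicate 2. Of these genes and 7 named with opposite terms, 10 of 88 called siRNA terms and 10 of 93 called knockout terms were no longer called without at least 1 library. Without siCont replicate 2 the siRNA terms of 10 genes moved by more than 1.5 times, among them *CCN1* to -0.39 (adjusted p = 0.186), *CAPN8* to 0.87, *FABP3* to -1.08, *AGR2* to 0.30, *CLDN1* to 0.83 and *MET* to -0.42. The difference of the terms of the 7 genes named with opposite terms was past the threshold in all 119 refits. Of 1482 list counts, 110 moved by more than 1.5 times. Genes at under about 10 counts over a group, such as *AKR1B1* and *CIITA*, are limited by depth.

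Same-numbered libraries did not deviate together (correlations from -0.00857 to 0.0453), so the numbers were not taken as pairs. With the replicate block 1473 genes were higher and 1443 lower, 318 and 303 of them called in each term.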
